A study of Bos taurus with 6 samples.

Results

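Solute carriers are the membrane proteins, encoded by the SLC gene families, that move amino acids, metals, ions, nucleosides, sugars, vitamins and lipids across the plasma membrane and the membranes of organelles. The genes described here are those whose symbol in the platform annotation starts with SLC and a family number, without the mitochondrial SLC25A family, the SLC2A glucose carriers and the lactate carrier SLC16A1. The array measured 144 such genes with 202 probe sets, out of 9155 genes with a symbol. A gene with several probe sets is given by the brightest of them, judged by the mean over all arrays. The current RefSeq gene table lists 304 protein-coding genes under the same rule, and all 144 measured genes were among them, so the remaining carriers were not analysed here. Of the 144, the genes SLC4A1AP and SLC7A6OS are named after a carrier and are not carriers themselves.

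The samples were day 7 bovine blastocysts, hybridized to the Affymetrix Bovine Genome Array with 1 labelled RNA sample per array. The superovulated group (3 arrays) held blastocysts that stayed in superovulated and inseminated Simmental heifers until they were flushed on day 7. The synchronized group (3 arrays) held embryos of likewise superovulated and inseminated donors that were flushed on day 2 at the 2-cell stage, placed by endoscope in recipients that had been synchronized without superovulation, and recovered on day 7. Ovarian stimulation of the donor was thus common to both groups, and early flushing and transfer happened only to the synchronized embryos. The number of embryos per array, and whether the arrays of a group came from different collections, are not given in the sources used here, so p-values measure only the spread between these arrays. The question of the comparison was how the tract of a superovulated animal affects the transcripts of the blastocyst.

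The embryo depends on carriers from its first cleavages. Carriers of neutral amino acids supply protein synthesis and the amino acid sensing that controls growth, and some of them also load osmolytes that hold cell volume. Zinc moves through paired families with opposite directions: the SLC39 importers bring it into the cytosol and the SLC30 exporters carry it out of the cell or into secretory vesicles. At the blastocyst stage the trophectoderm becomes a transporting epithelium, and ion exchangers there work beside the sodium pump to fill the cavity.

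All values are deposited log2 signals, and differences are superovulated minus synchronized on that scale. Array medians over all tested probe sets lay at 2.75 or slightly higher, so a value near log2 3 is background and log2 4 served as the line for a usable signal. The number of probe sets above that line was 1457 to 1894 on the superovulated arrays, against 973 to 1850 on the synchronized arrays, with superovulated array 3 and synchronized array 2 holding the most in their groups. The mean of 18 hybridization control probe sets was 12.65 to 12.69 on the superovulated arrays, against 12.91 to 13.54 on the synchronized arrays. Superovulated array 3 and synchronized array 2 deviated from their group means in the same way across all probe sets (r = 0.688 between their deviations, across probe sets that are not independent replicates). Results are therefore given with and without these arrays where they rest on them. The blastocyst label was checked on markers. The trophectoderm keratin KRT18 was bright on all superovulated arrays (7.74 to 8.11) and read 3.55 to 4.90 on the synchronized arrays, whereas KRT8 and the pluripotency gene SOX2 stayed at 2.27 to 2.44 everywhere and gave no usable signal.

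Most solute carriers gave no usable signal in these embryos. Only 13 of the 144 genes (9.03%) exceeded log2 4 on any array, against 12% of all tested probe sets, and 115 stayed below 3.5 on all 6 arrays. Here and below, the 144 genes are counted by their brightest probe set and the table by single probe sets. The units are thus unlike, and that choice can raise the share of the 144. Substrate groups were set by whole SLC families, so a group holds some carriers of other substrates, such as the creatine carrier SLC6A8 with the amino acids. In these groups, 4 of 37 carriers of amino acids and peptides were above the line, as were 4 of 21 carriers of zinc and other metals, 2 of 21 carriers of nucleosides, nucleobases and nucleotide sugars, 2 of 21 carriers of sugars, organic acids and lipids, and 1 of 16 carriers of vitamins, choline and organic ions. None of the 24 carriers of inorganic ions passed it. Just inside the line were SLC35E2B and SLC39A6, with highest values of 4.19 and 4.22. Just outside were the copper importer gene SLC31A1 (3.97), SLC35A5 (3.95) and the zinc carrier gene SLC39A12 (3.93). A probe set at background does not show that the transcript was missing.

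**Figure D1:**
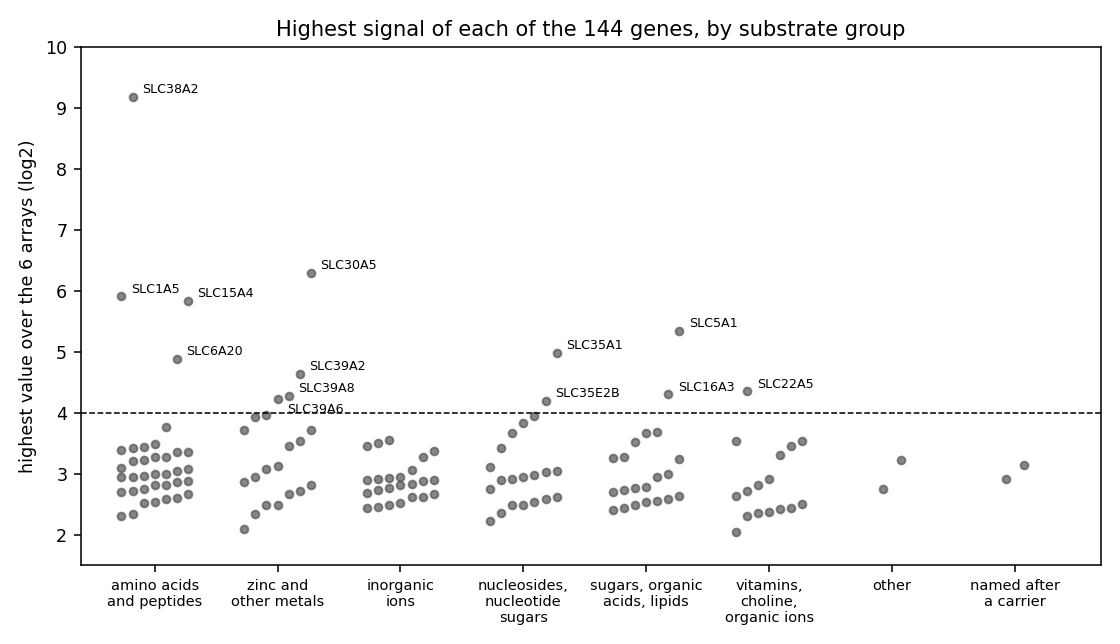
Highest log2 signal over the 6 arrays for each of the 144 genes (points), in substrate groups set by SLC family along the horizontal axis, with the dashed line at log2 4. The 13 named genes lie above the line, SLC38A2 reaches 9.18, and all 24 inorganic ion carriers lie below it.

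Among the 13 genes above the line, the number per array was 6, 6 and 8 on superovulated arrays 1 to 3, against 2, 10 and 3 on synchronized arrays 1 to 3. SLC38A2 and SLC1A5, both carriers of neutral amino acids, were the 2 genes above the line on all 6 arrays. SLC30A5 and SLC6A20 were above it on all 3 superovulated arrays and on no synchronized array. In contrast, 5 genes were above it on synchronized array 2 alone. Another 2 genes were above it on superovulated array 3 and synchronized array 2 and nowhere else.

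Between the groups, 2 of the 144 genes passed an adjusted p of 0.05 over all tested probe sets in limma, both higher in the superovulated group (1.39%, against 0.695% of all probe sets called higher). None passed as lower, against 0.0208% of all probe sets. At an unadjusted p below 0.05 the limma fit gave 6 higher and 4 lower genes among the 144. Over all 24016 tested probe sets it gave 1094 higher and 502 lower. A looser call, an adjusted p below 0.3 with at least a 2-fold difference, gave 3 higher genes (2.08%, against 1.79% of all probe sets) and 0 lower ones (against 0.104%). The arrays of the groups did not overlap in 6 genes that were higher in the superovulated group (4.17%, against 5.42%) and in 13 that were lower (9.03%, against 7.89%). These shares differ from those of all probe sets by a few genes at most. Of the 13 genes that were lower without overlap, 12 never exceeded log2 4, with differences of 0.02 to 0.47 in size.

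The zinc carrier SLC30A5 showed the largest difference of all 144 genes. It encodes a transporter of the early secretory pathway that loads zinc into the Golgi and supplies zinc-requiring enzymes there. Its signal was 6.30, 5.79 and 5.94 on the superovulated arrays, against 2.69, 2.60 and 3.63 on the synchronized arrays. It was above the line in every superovulated sample and below it in every synchronized one, with synchronized array 3 the highest of these. The means were 6.01 ± 0.26 in the superovulated group and 2.97 ± 0.57 in the synchronized group (SD, n = 3 each), a log2 difference of 3.04 with a 95% interval of 2.20 to 3.88 (adjusted p = 0.0426, limma). That is 8.21-fold higher, with an interval of 4.59 to 14.7, but the synchronized mean was near background, where the deposited values are compressed and the size of a fold is uncertain.

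SLC30A5 has a single probe set on the array, so no other probe set can be set beside it. Its call was lost in 5 of the 6 fits that left out 1 array: the adjusted p was 0.136, 0.155 and 0.149 without superovulated arrays 1, 2 and 3, and 0.133 and 0.0908 without synchronized arrays 1 and 2. Without synchronized array 3 it was 0.0345. With superovulated array 3 and synchronized array 2 both left out the difference was 2.88 (adjusted p = 0.301). The log2 difference stayed between 2.85 and 3.37 over the 6 fits. The summed marker signal of several embryonic cell types was also higher in the superovulated group. Of the 8 listed trophectoderm genes 3 were measured, KRT18 and DAB2 were called higher, and KRT8 was at background. DAB2 is also counted as a primitive endoderm gene, so this list does not stand for trophectoderm alone. The summed linear signal of the list was 247.4 to 313.6 on the superovulated arrays, against 21.6 to 43.6 on the synchronized arrays. For primitive endoderm, 4 of 5 listed genes were measured and 0 were called. At an unadjusted p below 0.05 in limma, 2 were higher (GATA6 and FN1) and 0 lower. GATA4 and PDGFRA differed by -0.20 and 0.07. The summed linear signal of that list was 170.9 to 204.7 in the superovulated group, against 45.03 to 75.76 in the synchronized group. For the inner cell mass, 3 of 6 listed genes were measured and 0 were called. At that p, 2 were higher (KLF4 and POU5F1) and 0 lower, and SOX2 was at background. POU5F1 stayed at 3.54 or less on all arrays, so KLF4 alone exceeded the line. The sum was 45.42 to 62.34 in the superovulated group, against 22.66 to 28.58 in the synchronized group. The part of these markers in the carrier result was not tested. In whole blastocysts, fewer cells of a type and less RNA per cell cannot be told apart.

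SLC30A6 and SLC30A1 gave no usable signal. SLC30A6, which in vertebrate cells forms a complex with SLC30A5 for zinc loading, read 2.83, 2.84 and 2.84 on the superovulated arrays, against 2.83, 2.81 and 2.86 on the synchronized arrays. SLC30A1, the zinc exporter of the plasma membrane, read 2.74 to 2.95 on the superovulated arrays, against 2.88 to 2.91 on the synchronized arrays. Both were at background in all samples, and neither difference passed. Of the 4 SLC30 genes measured, SLC30A5 alone exceeded the line.

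**Figure D2:**
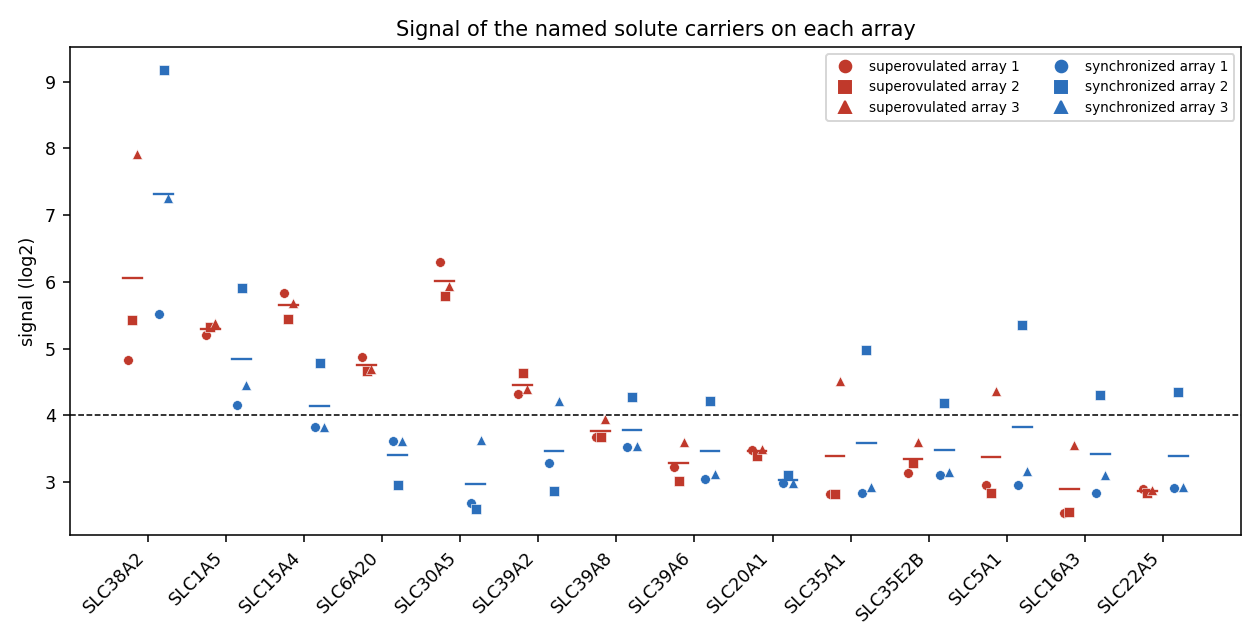
Log2 signal of the 13 carriers above log2 4 on any array and of SLC20A1, with 1 point per array (red, superovulated; blue, synchronized; marker shapes number the arrays) and a bar at each group mean. SLC30A5 lies at 5.79 to 6.30 on the superovulated arrays and at 2.60 to 3.63 on the synchronized arrays, while several carriers are high on superovulated array 3 and synchronized array 2.

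The SLC39 importers, which bring zinc and other divalent metals into the cytosol, had 13 measured members, and 3 exceeded the line. SLC39A2, a zinc importer of the plasma membrane, read 4.32, 4.64 and 4.39 in the superovulated group, against 3.28, 2.87 and 4.22 in the synchronized group. The groups did not overlap, but synchronized array 3 nearly reached the lowest superovulated value. The log2 difference of 0.99 (0.04 to 1.95) did not pass (adjusted p = 0.636).

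SLC39A8, an importer of zinc and manganese, read 3.67, 3.67 and 3.95 on the superovulated arrays, against 3.53, 4.27 and 3.54 on the synchronized arrays. The groups overlapped, and the difference was -0.02 (-0.62 to 0.59). SLC39A6, which mouse oocytes use to take up zinc during maturation, read 3.23, 3.01 and 3.60 in the superovulated group, against 3.05, 4.22 and 3.12 in the synchronized group. Its only value above the line came from synchronized array 2, and its other probe set never exceeded 3.70. The direction of SLC39A6 and SLC39A8 depended on that array: without it their differences were 0.20 and 0.23.

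The other metal carriers stayed below the line. The copper importer SLC31A1 read 3.43, 3.21 and 3.97 on the superovulated arrays, against 3.24, 3.19 and 3.22 on the synchronized arrays, so a single superovulated array stood out. SLC11A2, an importer of iron, read 3.54, 2.89 and 3.32 in the superovulated group, against 2.92, 3.07 and 2.92 in the synchronized group. SLC39A11 had its highest value on synchronized array 1, at 3.72, with 2.70 to 2.79 on the superovulated arrays. None of these differences passed, and that of SLC39A11 was -0.47 (-1.08 to 0.13). These genes were named after their values were seen.

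No measured gene that stores or handles metals passed. Of 13 listed genes 9 were measured, and 0 were called in either direction in limma, also at an unadjusted p below 0.05, and the list median was 0.13, against -0.02 over all tested probe sets. The metallothionein MT2A, which binds zinc in the cytosol, read 5.39, 4.63 and 5.19 on the superovulated arrays, against 5.84, 5.17 and 5.55 on the synchronized arrays. The groups overlapped, and its difference of -0.45 did not pass (adjusted p = 0.636). The metal-sensing factor MTF1 stayed at 2.56 to 3.19 on all arrays.

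Amino acid carriers included the brightest gene of the whole set. SLC38A2, a sodium-coupled carrier of alanine, glutamine and other neutral amino acids that cultured mammalian cells raise when amino acids run short or the medium is hypertonic, read 4.83, 5.43 and 7.92 on the superovulated arrays, against 5.52, 9.18 and 7.26 on the synchronized arrays. The groups overlapped over most of their range, with the highest values on superovulated array 3 and synchronized array 2. The means were 6.06 ± 1.64 in the superovulated group and 7.32 ± 1.83 in the synchronized group (SD, n = 3 each). The log2 difference of -1.26 had an interval of -4.54 to 2.02 (adjusted p = 0.642). Without synchronized array 2 it was -0.33, and without superovulated array 3 as well it was -1.26 (adjusted p = 0.485). After each array was centred on bright probe sets, which moves the median over all probe sets to -0.72, the difference was -1.95 and passed as lower (adjusted p = 6.37e-05). The other probe set of SLC38A2 stayed between 2.87 and 2.97 on all arrays, so the 2 probe sets of the gene disagreed on its level.

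SLC1A5, the sodium-dependent exchanger that brings glutamine into growing cells, read 5.20, 5.32 and 5.38 in the superovulated group, against 4.16, 5.91 and 4.46 in the synchronized group. The superovulated arrays were nearly equal, and the synchronized arrays lay on both sides of them. The group means were 5.30 ± 0.09 in the superovulated group and 4.84 ± 0.94 in the synchronized group (SD, n = 3 each), and the difference of 0.46 (-0.80 to 1.71) did not pass (adjusted p = 0.645). Without synchronized array 2 the difference was 0.99 (adjusted p = 0.0841).

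SLC15A4 carries histidine and small peptides out of lysosomes. It read 5.83, 5.44 and 5.69 on the superovulated arrays, against 3.83, 4.78 and 3.82 on the synchronized arrays. All superovulated values were higher than all synchronized values. The difference of 1.51 (0.73 to 2.29), or 2.85-fold, met the looser call (adjusted p = 0.195). Without synchronized array 2, the synchronized array nearest to the superovulated ones, the difference was 1.83 and passed (adjusted p = 0.0453). In each of the other 5 fits without 1 array the looser call was lost, at an adjusted p of 0.422 to 0.528.

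SLC6A20, a sodium- and chloride-dependent carrier of proline, read 4.88, 4.67 and 4.70 on the superovulated arrays, against 3.62, 2.95 and 3.62 on the synchronized arrays. The superovulated samples were all above the line and the synchronized samples all below it. The difference of 1.35 (0.81 to 1.89), or 2.56-fold, met the looser call (adjusted p = 0.0989) and passed without synchronized array 2 (difference 1.13, adjusted p = 0.0427). In the other 5 fits without 1 array the adjusted p was 0.178 to 0.306, and the looser call was lost without superovulated array 2. It was also lost after a second quantile normalization (adjusted p = 0.521). After centring on bright probe sets the differences of SLC6A20 and SLC15A4 were 0.66 and 0.82, below 2-fold, so both looser calls were lost. In a fit with the replicate number as a block, SLC15A4 lost its looser call (adjusted p = 0.576) and SLC6A20 kept it (adjusted p = 0.242). In a fit restricted to the 1406 probe sets averaging more than log2 4, 413 passed as higher and 28 as lower. SLC15A4 and SLC6A20 were among the higher ones with SLC30A5, at adjusted p = 0.02 and 0.0136. SLC6A20 and SLC30A5 cleared that filter only through the superovulated arrays (synchronized means 3.40 and 2.97), so their passing there adds no support. SLC15A4 averaged 4.14 on the synchronized arrays and exceeded log2 4 only on array 2 of these, so its passing adds little. With superovulated array 3 and synchronized array 2 both left out the adjusted p was 0.188 for SLC15A4 and 0.164 for SLC6A20. Both genes have 1 probe set.

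**Figure D3:**
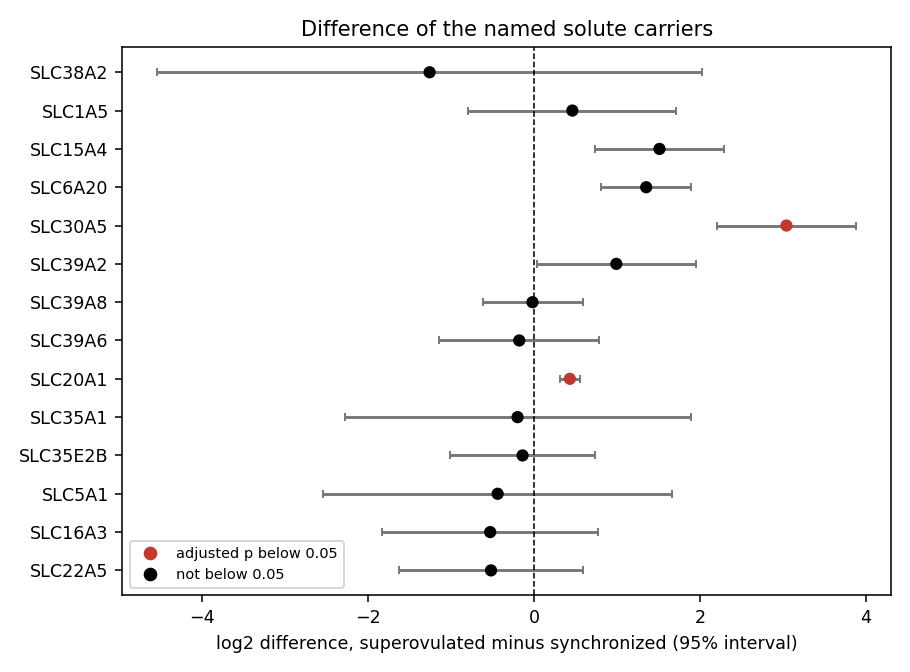
Log2 difference, superovulated minus synchronized, with its 95% interval from limma for the 14 named carriers; red points passed an adjusted p of 0.05. The intervals of SLC30A5, SLC20A1, SLC15A4, SLC6A20 and SLC39A2 lie above 0, and that of SLC38A2 runs from -4.54 to 2.02.

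Other amino acid carriers known from embryos or from growing cells lay at background; they were chosen for their role after their values were seen. SLC3A2, the heavy chain that brings several SLC7 carriers to the membrane, read 3.04 or less in the superovulated group and 2.88 to 3.48 in the synchronized group. Its partner SLC7A5, a carrier of leucine, stayed between 2.68 and 2.71 on all arrays, and the glycine carrier SLC6A9, which mouse embryos use to regulate cell volume, between 2.60 and 2.70. SLC6A8, the creatine carrier, read 3.73, 3.76 and 3.35 on the superovulated arrays, against 3.33, 2.89 and 3.15 on the synchronized arrays. It was higher without overlap but below the line throughout, and its difference of 0.49 (0.06 to 0.92) did not pass (adjusted p = 0.636). The other probe set of SLC6A8 read 2.75 to 2.92 on all arrays, with a difference of 0.02.

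No measured gene of amino acid sensing passed: of 19 listed genes 16 were measured, 0 passed in limma, also at an unadjusted p below 0.05, and the list median was -0.10. RRAGC, a GTPase that signals amino acid supply to the lysosomal growth kinase, read 3.46, 3.46 and 5.52 on the superovulated arrays, against 3.47, 6.63 and 4.69 on the synchronized arrays. ATF4, a transcription factor that raises amino acid carriers under shortage, stayed between 2.78 and 3.26.

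Inorganic ion carriers had no member above the line, but gave the other call. SLC20A1, a sodium-coupled importer of phosphate, read 3.48, 3.39 and 3.50 on the superovulated arrays, against 2.99, 3.10 and 2.99 on the synchronized arrays. The groups did not overlap and each was very tight. The means were 3.46 ± 0.06 in the superovulated group and 3.03 ± 0.06 in the synchronized group (SD, n = 3 each), and the difference of 0.43 (0.31 to 0.55), or 1.35-fold, passed (adjusted p = 0.0438). All values were near background. The call was lost in each of the 6 fits without 1 array, where the adjusted p was 0.0573 to 0.169, and without superovulated array 3 and synchronized array 2 together (adjusted p = 0.181). It was also lost in limma after median centring (adjusted p = 0.0629), after a second quantile normalization (0.12) and with an intensity trend (0.076). The same centring on bright probe sets turned the SLC20A1 difference to -0.26.

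The other ion carriers ranged from 2.29 to 3.56 over all arrays. SLC20A2, the related phosphate carrier, read 2.96 to 2.98 on the superovulated arrays, against 2.99 to 3.06 on the synchronized arrays. The sodium-proton exchanger SLC9A3 stayed between 2.72 and 2.81, the sodium-potassium-chloride carrier SLC12A2 between 2.51 and 2.93, and the bicarbonate exchanger SLC4A2 between 2.70 and 2.90. None of the 8 SLC4 and 4 SLC12 genes measured exceeded the line. Among listed partners of ion and acid-base carriers, 7 of 11 were measured and 0 passed, with 1 higher and 0 lower at an unadjusted p below 0.05 and a list median of -0.04. That gene was EZR, which ties apical carriers to the actin cortex: it read 6.53, 7.06 and 6.41 on the superovulated arrays, against 4.66, 4.03 and 4.77 on the synchronized arrays. The groups lay apart, with a difference of 2.18 (1.47 to 2.89) that narrowly missed the threshold (adjusted p = 0.0602).

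Nucleoside carriers gave no usable signal. The equilibrative carriers SLC29A1, SLC29A2 and SLC29A3 and the concentrative carrier SLC28A3 lay between 2.20 and 2.95 on all arrays. Of 10 listed genes of nucleoside salvage 9 were measured and 0 passed, with 0 higher and 1 lower at an unadjusted p below 0.05 and a median of -0.03. In the SLC35 family of nucleotide sugar carriers, 2 of 16 genes exceeded the line. SLC35A1, which brings activated sialic acid into the Golgi, read 2.82, 2.82 and 4.52 on the superovulated arrays, against 2.84, 4.98 and 2.93 on the synchronized arrays. It was at background on 4 arrays and bright on superovulated array 3 and synchronized array 2, and the group difference was -0.20 (-2.28 to 1.89). SLC35E2B read 3.14, 3.28 and 3.60 in the superovulated group, against 3.11, 4.19 and 3.15 in the synchronized group, and did not pass.

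Of the carriers of sugars, organic acids, lipids, vitamins and organic ions, 3 exceeded the line, and they did so on synchronized array 2, 1 of them on superovulated array 3 as well. SLC5A1, the sodium-coupled glucose carrier of intestine and kidney, read 2.95, 2.83 and 4.36 on the superovulated arrays, against 2.96, 5.35 and 3.16 on the synchronized arrays. The lactate exporter SLC16A3 read 2.54, 2.56 and 3.56 in the superovulated group, against 2.84, 4.30 and 3.11 in the synchronized group. Both were highest on superovulated array 3 and synchronized array 2 of their groups, and their differences of -0.44 and -0.53 did not pass. SLC22A5, the carnitine importer, read 2.90, 2.84 and 2.88 on the superovulated arrays, against 2.91, 4.35 and 2.92 on the synchronized arrays. It left background on synchronized array 2 alone, and without that array its difference of -0.52 became -0.04.

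Of the 13 genes above the line, 6 have other probe sets, 7 in all, and none of those 7 exceeded 3.70 on any array. The other probe sets of SLC5A1, SLC22A5 and SLC16A3 read between 2.21 and 2.94. The other probe set of SLC35E2B read 2.43 to 2.44 on the superovulated arrays, against 2.45, 3.41 and 2.46 on the synchronized arrays, and thus again was highest on synchronized array 2. The signal of these 6 genes therefore rests on 1 probe set each.

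BSG, the glycoprotein that carries lactate transporters to the membrane, was on the list of carrier partners and read 5.04, 5.44 and 5.14 on the superovulated arrays, against 2.21, 2.92 and 3.29 on the synchronized arrays. The groups did not overlap, and the difference of 2.40 (1.61 to 3.19) missed the threshold narrowly (adjusted p = 0.061). It was the 1 gene of the 3 measured on that list with an unadjusted p below 0.05, and 0 passed. Among 23 genes of the ABC and aquaporin families 0 passed, with 2 higher and 1 lower at an unadjusted p below 0.05 and a median of -0.02. ABCB6, a porphyrin transporter, read 4.03, 5.39 and 4.24 in the superovulated group, against 2.65, 3.10 and 2.67 in the synchronized group, a difference of 1.75 that met the looser call (adjusted p = 0.285). The water and glycerol channel AQP3 read 3.57 to 3.93 on the superovulated arrays, against 2.82 to 3.08 on the synchronized arrays, and did not pass (adjusted p = 0.123).

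The line itself selects for arrays with bright values, since 7 of the 13 genes passed it only through synchronized array 2 or through that array and superovulated array 3, so the array pattern is given over all 144 genes. Synchronized array 2 was the highest of all 6 arrays for 24 of the 144 (16.7%), against 12.7% of all tested probe sets. Superovulated array 3 and synchronized array 2 were both the highest of their groups for 19 of the 144 (13.2%), against 9.33%.

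Some oocyte and cumulus transcripts were brightest on the same arrays as SLC38A2, SLC5A1 and SLC35A1. KPNA7, which brings proteins into the nucleus of the oocyte, read 5.94, 5.98 and 7.78 on the superovulated arrays, against 4.04, 9.02 and 6.11 on the synchronized arrays. Of 11 listed oocyte genes, a list put together with values known, 8 were measured and 3 exceeded the line (KPNA7, ZP2 and ZP4). The other 5 stayed below it on all arrays, and 0 of the 8 passed in limma, with 0 higher and 2 lower at an unadjusted p below 0.05. The summed linear signal of that list was 105.6, 109.3 and 295.6 on the superovulated arrays, against 61.89, 671.8 and 120.3 on the synchronized arrays, with ZP3 and GDF9 at background.

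All 6 listed cumulus and granulosa genes were measured, and their summed linear signal was 51.02, 53.15 and 215.6 on the superovulated arrays, against 61.7, 431.6 and 108.6 on the synchronized arrays. TNFAIP6, of the cumulus matrix, supplied most of it on superovulated array 3 and on synchronized arrays 2 and 3, while the granulosa genes CYP19A1 and FSHR stayed at 2.67 to 3.38. HAS2 of that list went another way: it read 3.78, 4.05 and 3.65 on the superovulated arrays, against 3.66, 3.44 and 3.58 on the synchronized arrays. The part of these transcripts in the carrier values was not tested. The blood list had 0 of 4 measured genes above the line. Of the 5 listed oviduct and uterus genes 4 were measured: OVGP1, PAX8 and MUC1 read 2.19 to 2.67 on all arrays, whereas EPCAM, which embryonic epithelium also expresses, read 7.12, 7.83 and 7.54 on the superovulated arrays, against 4.64, 5.50 and 5.22 on the synchronized arrays. Its difference of 2.38 did not pass (adjusted p = 0.0576), and the summed linear signal of that list was 155.8 to 244 in the superovulated group, against 42.18 to 61.65 in the synchronized group.

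**Figure D4:**
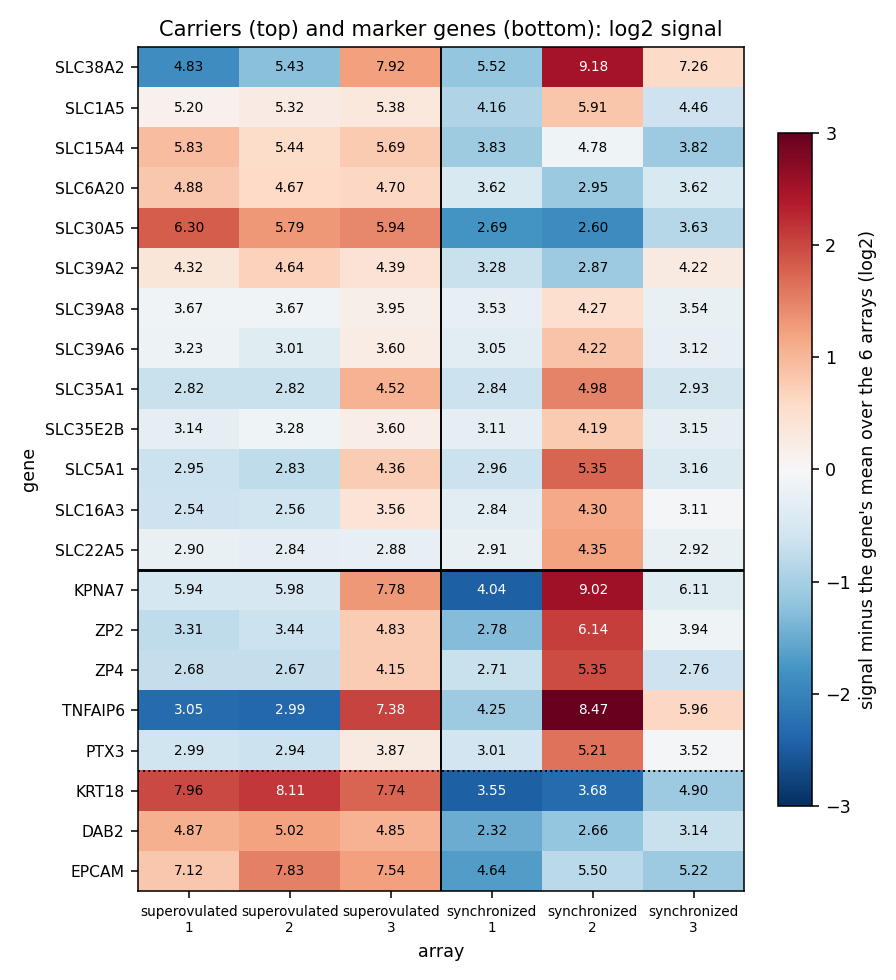
Log2 signal of the 13 carriers above the line (top) and of marker genes picked with their values known (bottom), 1 column per array. The marker genes are KPNA7, ZP2 and ZP4 (oocyte list), TNFAIP6 and PTX3 (cumulus list), KRT18 and DAB2 (trophectoderm list) and EPCAM (oviduct and uterus list). Numbers give the signal and colour the deviation from the gene's mean over the 6 arrays. SLC38A2, SLC35A1 and SLC5A1 are red on superovulated array 3 and synchronized array 2, as are the oocyte and cumulus genes shown. HAS2 of the cumulus list also exceeded the line and is not shown. It was highest on superovulated array 2 (4.05) and lowest on synchronized array 2 (3.44). SLC30A5 is red on all superovulated arrays, as are KRT18, DAB2 and EPCAM. From the same lists as these, KRT8 and MUC1 stayed at background and are not shown.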

How the data were processed

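The authors deposited log2 signals for each probe set on each array, made with GCRMA per the submitters' processing notes (version not stated). The sources used here do not say whether all 6 arrays went through 1 normalization. GCRMA compresses values near background. Of 24128 probe sets, 112 control probe sets were set aside, which left 24016 tested: 13292 with 1 symbol in GEO's platform annotation, 86 with several and 10638 with none. All 144 solute carrier genes matched the ARS-UCD2.0 RefSeq table by gene identifier, with 0 symbol changes. No sequence or coordinate is given.

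The difference between groups was fitted for every probe set by limma 3.58.1 under R 4.3.3 (lmFit, eBayes, group only, two-sided). P-values were adjusted by Benjamini-Hochberg over all 24016 probe sets, and intervals are 95%. The procedure was tested on simulated data. The 3 arrays per group limit the precision. The 14 named genes are those with a call or looser call and, in each substrate group, up to 4 with the highest mean among those above log2 4 on any array; others are said to be chosen afterwards. Substrate groups follow the SLC family number. Members, lists and settings were chosen with earlier results of these data known. Alternatives were other normalizations, a filter on dim probe sets, an intensity trend, a replicate block, other lines and probe sets, and leaving out arrays.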

Additional observations from a re-analysis of the deposited data

How the results depend on the processing

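The calls on solute carriers depended on the processing, and the cause was not tested. Some of the fits used fewer arrays or fewer probe sets. All probe sets called numbered 172 in the principal fit, 28 after a second quantile normalization, 50 with an intensity trend, 441 among bright probe sets only, 529 after centring on bright probe sets, 1 without superovulated array 3 and synchronized array 2, and 26 to 137 with 1 array left out. Higher calls made up 97.1% in the principal fit, 39.9% after centring on bright probe sets (211 higher, 318 lower), 70.1% without synchronized array 2 and 0% in the fit without both arrays. Members called higher numbered 2 in the principal fit, 0 after a second quantile normalization, with an intensity trend or without both arrays, 1 after median centring or centring on bright probe sets, and 0 to 2 with 1 array left out. Members called lower numbered 0, and 1 after centring on bright probe sets, where SLC38A2 passed at -1.95 (adjusted p = 6.37e-05) while the median over all probe sets was -0.72.

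No replicate pairing was found: deviations of arrays with the same number correlated at 0.542, -0.399 and -0.405, and superovulated array 3 correlated best with synchronized array 2 (0.688). With the replicate block, 0 probe sets passed over the table (1382 at an unadjusted p below 0.05) and 0 members (7 at that p); SLC30A5 had adjusted p = 0.214.

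Of SLC30A5, the difference was 2.34 to 3.06 over the other normalizations and models, and its adjusted p was 0.162 after a second quantile normalization and 0.0542 with an intensity trend. Members above the line numbered 13, and 5 with the line at log2 5 or with a mean above log2 4. Their median difference was -0.14, 0.46 with the line at log2 5 and 1.35 with a mean above log2 4. It was -0.84 after centring on bright probe sets, and -0.33 to 0.32 with 1 array left out. Over all tested probe sets, the median was 0.17 for those above the line on any array and 0.59 with a mean above log2 4. SLC30A5 and SLC6A20 passed the mean filter only through the superovulated arrays, so the higher median there adds no support. Signs turned for SLC1A5 after a second quantile normalization (-0.03) and centring on bright probe sets (-0.24), for SLC20A1 after that centring (-0.26), for SLC39A8 after median centring (0.01) and for SLC38A2 on its other probe set (0.01). Leaving out 1 array moved SLC39A8 between -0.14 and 0.23, SLC5A1 between -0.93 and 0.32, SLC35A1 between -0.76 and 0.50, SLC35E2B between -0.33 and 0.21, and SLC39A6 between -0.39 and 0.20. Without both arrays SLC39A8, SLC35E2B and SLC39A6 stood at 0.14, 0.08 and 0.04. In that fit SLC5A1, SLC35A1 and SLC16A3 stood at -0.17, -0.06 and -0.42. Values near background limit the size of each fold.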
